A study of Homo sapiens with 54 samples.

Results

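The PC3 transiently open regions are stretches of the genome where an ATAC-seq peak was called in prostate cancer cells 1 day after cisplatin was removed, in no untreated replicate, and in at most 1 replicate 10 days after removal. ATAC-seq marks accessible DNA with a transposase that cuts where nucleosomes leave the DNA free. Peaks from all 18 peak lists of the series were merged into 232138 regions on chromosomes 1 to 22 and X. A list was taken to have a region where any of its peaks overlapped it by at least 1 bp. The regions kept had a peak in 0 of 3 PC3 control lists, 3 of 3 PC3 day 1 lists and at most 1 of 3 PC3 day 10 lists. They number 1235, or 0.532% of all merged regions, and are called the members here. They were chosen by whether a peak was called in the 9 PC3 lists, so their pattern in PC3 is a description and carries no test.

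The study treated 2 human cancer cell lines with cisplatin and took the surviving cells 1 day (1DPTR) and 10 days (10DPTR) after the drug was removed, beside untreated control cells. PC3 is a p53-null line from a bone metastasis of prostate cancer, and MDA-MB-231 is a triple-negative, p53-mutant line from a breast cancer effusion. The 6 groups hold 54 samples, since 3 biological replicates per group were divided into 3 experimental samples ahead of tagmentation, and 1 peak list per biological replicate was analysed (n = 3 lists per group). The labels give no genotype change, and no dose is used here. Each line stands for 1 tumour, and only cells that outlived the drug were sampled at day 1 and day 10. The labels call the replicates biological without saying more of the cultures.

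Cisplatin forms crosslinks in DNA that block replication and transcription and trigger a damage response. Chromatin around lesions and at stress-responsive enhancers can open for a limited time and be repackaged later, whereas a lasting change of cell state leaves lasting open sites. Enhancers lie far from gene starts and differ between cell types, while most promoters of broadly used genes are open in many cell types. The series' title concerns polyploid survivors with altered nuclear organization. In bulk ATAC-seq, a weak peak in every cell and a strong peak in few cells cannot be told apart.

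No genome sequence was used here, so the sequences shown are promoter windows from RefSeq (GRCh38.p14), which run from 250 bases before to 50 bases after a gene's start. Members overlapped 35 of the 34961 windows, at 33 distinct members, and the day 1 summit fell inside the window in all 3 day 1 lists for 14 of the 35. The 6 below are among those 14 and stand for the outcomes described later. LOC107986012, CH25H and THSD4 belong to the gene-end members with the highest area rank, HTR3E and SPINK7 are the highest-ranked protein-coding ones open in no MDA-MB-231 list, and GPBAR1 was open in MDA-MB-231 only after cisplatin. The last 3 were chosen after their values were seen. Each runs 5′ to 3′ along the gene's strand in lower case, with capitals where one of 17 searched motifs matched on either strand.
LOC107986012 promoter, chr3:28576278-28576577, minus strand: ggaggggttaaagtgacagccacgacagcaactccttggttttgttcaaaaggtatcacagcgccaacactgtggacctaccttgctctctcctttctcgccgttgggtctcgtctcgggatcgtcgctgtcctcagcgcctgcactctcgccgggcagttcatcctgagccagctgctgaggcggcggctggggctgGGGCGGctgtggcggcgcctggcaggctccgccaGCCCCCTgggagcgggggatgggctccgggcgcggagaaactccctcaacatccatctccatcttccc
CH25H promoter, chr10:89207268-89207567, minus strand: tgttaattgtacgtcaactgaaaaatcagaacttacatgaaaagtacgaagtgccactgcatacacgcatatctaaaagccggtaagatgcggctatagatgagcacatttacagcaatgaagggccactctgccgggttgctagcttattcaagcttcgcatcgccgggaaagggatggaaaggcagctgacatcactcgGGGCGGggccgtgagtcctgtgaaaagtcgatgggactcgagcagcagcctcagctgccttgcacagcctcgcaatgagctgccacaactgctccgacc
THSD4 promoter, chr15:71096644-71096943, plus strand: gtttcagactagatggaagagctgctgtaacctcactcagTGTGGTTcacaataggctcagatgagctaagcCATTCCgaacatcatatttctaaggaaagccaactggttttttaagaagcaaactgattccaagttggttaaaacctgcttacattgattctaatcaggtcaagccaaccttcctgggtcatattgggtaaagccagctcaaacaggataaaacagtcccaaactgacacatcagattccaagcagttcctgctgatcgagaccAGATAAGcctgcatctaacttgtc
HTR3E promoter, chr3:184099929-184100228, plus strand: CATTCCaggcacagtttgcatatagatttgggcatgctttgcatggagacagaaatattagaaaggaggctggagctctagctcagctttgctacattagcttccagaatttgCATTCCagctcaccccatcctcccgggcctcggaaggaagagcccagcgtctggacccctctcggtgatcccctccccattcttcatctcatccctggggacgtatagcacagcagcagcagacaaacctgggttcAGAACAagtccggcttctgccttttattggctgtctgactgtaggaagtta
SPINK7 promoter, chr5:148312173-148312472, plus strand: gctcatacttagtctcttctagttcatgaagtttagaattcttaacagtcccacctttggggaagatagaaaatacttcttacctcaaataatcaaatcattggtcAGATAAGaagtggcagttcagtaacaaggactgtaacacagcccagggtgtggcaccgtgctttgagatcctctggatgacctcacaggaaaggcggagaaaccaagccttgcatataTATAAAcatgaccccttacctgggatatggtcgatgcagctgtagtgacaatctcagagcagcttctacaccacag
GPBAR1 promoter, chr2:218260765-218261064, plus strand: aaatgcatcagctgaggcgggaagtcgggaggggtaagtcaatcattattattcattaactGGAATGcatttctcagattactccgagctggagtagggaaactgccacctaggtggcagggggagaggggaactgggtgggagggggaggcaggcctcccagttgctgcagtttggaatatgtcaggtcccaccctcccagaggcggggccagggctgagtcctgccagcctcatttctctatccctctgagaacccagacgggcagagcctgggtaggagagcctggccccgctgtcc

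In these windows the capitals mark a GC box and a CTCF core at LOC107986012, a GC box at CH25H, and RUNX, TEAD and GATA letters at THSD4. HTR3E has 2 TEAD matches and 1 androgen receptor match, SPINK7 a GATA and a TATA match, and GPBAR1 a TEAD match. CH25H encodes cholesterol 25-hydroxylase, an interferon-responsive enzyme. THSD4 encodes a matrix protein of the ADAMTS-like family. HTR3E encodes a serotonin receptor subunit, SPINK7 a serine protease inhibitor and GPBAR1 a bile acid receptor of the G protein-coupled class.

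Across the 35 windows, motif content resembled that of gene starts with fewer GC-rich elements. The GC box GGGCGG, bound by SP and KLF factors, was found in 12 windows (34.3%), against 45.0% of all promoter windows and 62.9% of the 19828 windows that any merged region overlapped. Median GC content was 53.7% in the member windows, 58.7% in all windows and 64.3% in windows with any region. Windows at PC3 regions open at both times and at late-opening regions, both defined below, were lower still, with medians of 51.3% and 50.0%. Their GC box shares were 15.5% and 12.0%, so low GC content was not particular to the members. The ETS letters CCGGAAG, which are common at promoters of broadly used genes, were in 0 of 35 member windows, against 10.3% of all windows. The CRE letters TGACGTCA were also in 0 of 35. They were in only 1.85% of all windows, so their absence from 35 windows says little. NRF1 letters GCGCNTGCG were in 2.86% against 7.50%, and the E-box CACGTG in 2.86% against 7.27%. The open at both times and late-opening sets were also below all windows for each of these motifs, with CRE letters in 0 windows of either set. These letters are GC-rich or hold a CG step, as the GC box does.

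TEAD letters GGAATG were in 9 windows (25.7%), against 14.0% of all windows and 26.4% of windows at PC3 regions open at both times. AP-1 letters TGANTCA were in 2 (5.71%), against 7.68% of all windows and 13.6% and 21.6% at PC3 regions open at both times and late-opening regions. GATA letters AGATAAG were in 3 (8.57%, against 2.67% of all windows), NF-kB letters GGGNNTTCC in 3 (8.57% against 6.58%) and CTCF core letters AGGGGGC in 4 (11.4% against 14.4%). With so few windows, 1 window is worth 2.86%. Forkhead letters TGTTTAC were in 5.71% against 3.42% of all windows, RUNX letters TGTGGTT in 2.86% against 4.28%, C/EBP letters TTGCNNAA in 2.86% against 10.4% and STAT letters TTCNNNGAA in 5.71% against 7.66%. The androgen receptor letters AGAACA were in 17.1% against 14.8%, the NRF2 letters TGACNNNGC in 5.71% against 13.4% and TATA letters TATAAA in 11.4% against 11.5%. A shortened p53 motif, CNTGNNC, was in 85.7% of member windows and 90.0% of all windows, so it was not marked. A match is a stretch of letters and not evidence of binding, and both strands were searched, with matches of different motifs allowed to overlap.

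Most regions that gained a peak in PC3 at day 1 kept it. Of 8138 regions with a peak in 0 of 3 control and 3 of 3 day 1 lists, 5662 (69.6%) had a peak in all 3 day 10 lists, 1241 (15.2%) in 2 of them, and the 1235 members (15.2%) in at most 1. Among the members, 519 (42.0%) had no day 10 peak and 716 (58.0%) had one in a single list. That list was replicate 1 for 289 members, replicate 2 for 215 and replicate 3 for 212. The 5662 regions, called open at both times here, and 8592 late-opening regions (0 control, at most 1 day 1 and 3 day 10 lists) are used below for comparison.

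The threshold of 1 day 10 list cut through a gradient. The area percentile is the rank of a peak's area within its own list, from 0 to 100. Its mean over the 3 day 1 lists had a median of 15.8 for members with no day 10 peak and 18.9 for those with 1, just inside the rule. It was 21.2 for regions with 2 day 10 lists, just outside, and 31.6 for those with 3. Regions just outside on the control side, with a peak in 1 of 3 control lists, number 1117 and had a median of 19.7.

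The members were weak peaks, close to the lowest area the lists hold. The deposited lists carry no peak with an area under 200, and the members' median area was 330, 269 and 267 in day 1 replicates 1, 2 and 3. The median of all regions with a peak in those lists was 561, 611 and 577. As percentiles within the list, the members' medians were 24.8, 13.4 and 13.8, against 42.6, 21.1 and 32.6 for regions open at both times. All 3 day 1 percentiles were under 50 for 1137 members (92.1%), at or above 50 for 4 (0.324%) and at or above 75 for none. For regions open at both times, 347 (6.13%) were at or above 50 in all 3 lists.

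**Figure D1:**
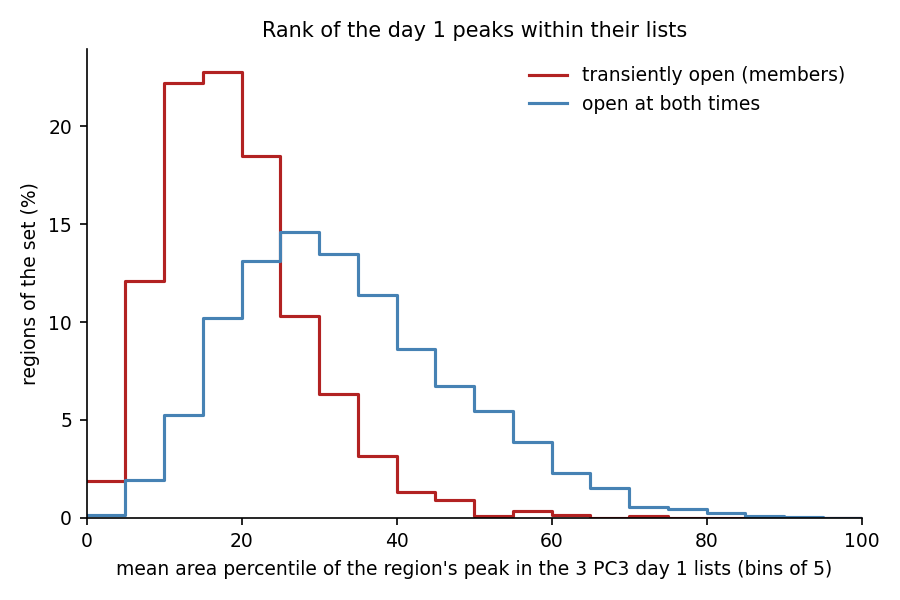
The x axis is the mean area percentile of a region's peak over the 3 PC3 day 1 lists in bins of 5, and the y axis the percent of regions in the set, with a red line for the 1235 members and a blue line for the 5662 regions open at both times. The members crowd at low ranks, with a median of 17.7 against 31.6.

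Because the members sit at the low end, their absence from a list means that no peak with an area of at least 200 was called there, and does not show that the DNA was closed. When only the 50000 highest-area peaks of each list were used, the rule chose 374 regions, and 0 of these overlapped a member. Of those 374, 358 (95.7%) lay in regions that had a peak in at least 1 whole PC3 control list. With the upper 50% of each list the rule chose 645 regions, of which 4 overlapped a member. The shortened lists thus chose other regions, most of them in regions with a PC3 control peak in the whole lists. They do not show a transient pattern at higher peak areas, and what follows describes the weak peaks of the whole lists.

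List length rose from control to day 1 and did not fall back at day 10. The PC3 control lists held from 106577 to 114731 peaks, the day 1 lists from 115050 to 164802 and the day 10 lists from 133898 to 165535. Read depth is unknown, since the lists hold no counts, and its part in the membership was not tested. The number of members rose to 1960 without control replicate 1, 3228 without day 1 replicate 2, 2094 without day 1 replicate 3, 2209 without day 10 replicate 1 and 2166 without day 10 replicate 2. A rule on fewer lists is looser, and day 1 replicate 2, the shortest day 1 list, was the one that held the number down most.

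The day 1 summits of the replicates lay close together. By the rule, each member holds a peak of all 3 day 1 lists in 1 merged region, and its width limits how far the summits can lie apart. The highest point of the peak varied by a median of 27 bp over the 3 day 1 lists, and by at most 100 bp in 1101 members (89.1%). Regions open at both times varied by a median of 28 bp. Members were narrow, with a median merged width of 415 bp against 558 bp for regions open at both times, 416 bp for late-opening regions and 466 bp for all regions. Their own day 1 peaks had median widths of 275, 364 and 325 bp in replicates 1, 2 and 3, below the list medians of 346, 541 and 455 bp. Only 93 members (7.53%) were 1 kb or wider, against 14.3% of regions open at both times.

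**Figure D2:**
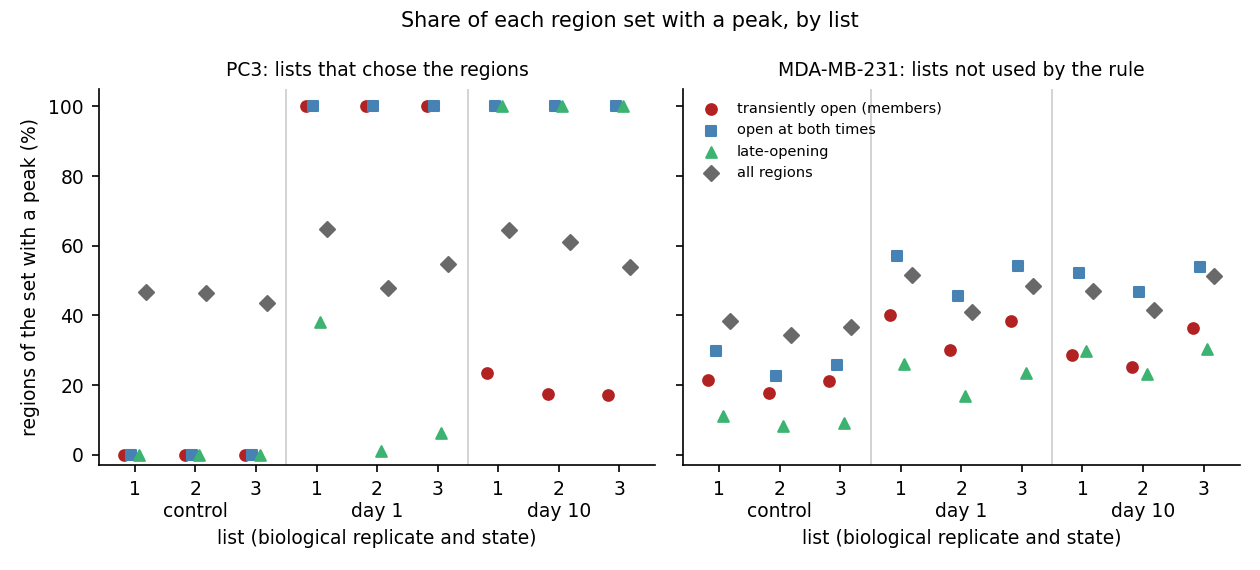
The x axis shows the 9 lists of each line by state and replicate, and the y axis the percent of regions of a set with a peak. In PC3 (left) the 0% and 100% values were set by the rules that chose the sets, while in MDA-MB-231 (right) the members (red circles) rise from between 17.9% and 21.6% in control lists to between 30.1% and 40.2% at day 1, below all regions (grey diamonds) in each list.

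Members lay away from gene starts. Only 45 of 1235 (3.64%, 95% Wilson interval 2.73 to 4.84) were within 1 kb of a protein-coding gene's start, or of either end where no strand was given. The share was 3.11% for regions open at both times, 1.62% for late-opening regions and 6.93% for all regions. Intervals here cover counting only, and regions are not replicates. The share that touched no protein-coding gene body was 53.9% (666 members), against 56.2%, 57.8% and 49.2% in the same order. The median distance to a gene start was 72.8 kb for members, 70.3 kb for regions open at both times, 106 kb for late-opening regions and 64.7 kb for all regions. By these medians the members lay close to the regions that stayed open and nearer to gene starts than those that opened late.

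Most members lay more than 1 kb from any peak of untreated PC3 cells, a distance that the rule helped to set. The rules of the members and of the sets compared with them leave out every region with a PC3 control peak. All regions include such regions, and 60.9% of them had a control peak within 1 kb. A PC3 control peak lay within 1 kb of 222 members (18.0%), against 19.7% of regions open at both times and 13.4% of late-opening ones. The median distance to the nearest control peak was 5.79 kb for members, 4.89 kb for regions open at both times and 6.85 kb for late-opening regions. Gene-poor stretches, here 1 Mb windows holding no more than 1 protein-coding gene, contained 16.8% of members, 13.5% of regions open at both times, 18.2% of late-opening regions and 13.7% of all regions.

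The members were spread over many windows, with few of them close together. They fell in 949 of the 2878 windows of 1 Mb that held any region, with at most 4 in a window. The median distance from a member to the nearest other member was 726 kb, and 22 members (1.78%) had another within 10 kb. Spacing depends on the size of a set and was not computed for other sets, so it is not read as a trait of the members. By chromosome, members made up 5.32 of every 1000 merged regions. The lowest values were 2.70 on chromosome 16 (15 members) and 3.36 on chromosome 1 (70 members), and the highest were 7.74 on chromosome 14 (70 members) and 7.90 on chromosome 21 (20 members). Chromosome 1 was not low for regions open at both times, with 25.8 per 1000 against 24.4 on all chromosomes, while chromosome 14 was high there too, with 34.4.

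**Figure D3:**
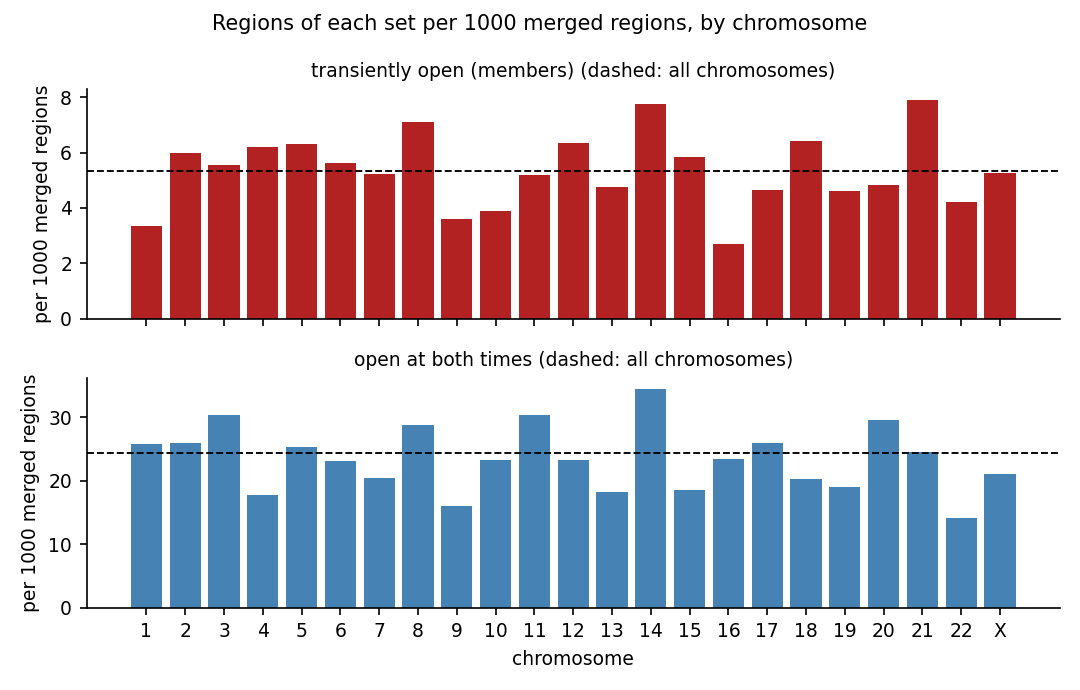
Bars give the number of regions per 1000 merged regions of each chromosome (y axis, from 0) for members (top) and regions open at both times (bottom), with a dashed line for all chromosomes together. Members are sparse on chromosomes 1 and 16 and dense on chromosomes 14 and 21, and only chromosome 14 of these 4 stands out in the same way in the lower panel.

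Whether MDA-MB-231 had a peak was not used to choose the members, although its peaks helped to set the edges of the merged regions. With regions merged over the 9 PC3 lists alone, the rule chose 1284 members, and day 1 against control in MDA-MB-231, as defined below, was 0.47 log2 either way. In control replicates 1, 2 and 3 the members with a peak numbered 267, 221 and 261 (21.6%, 17.9% and 21.1%). At day 1 they numbered 497, 372 and 475 (40.2%, 30.1% and 38.5%), and at day 10 they numbered 355, 312 and 448 (28.7%, 25.3% and 36.3%). Every day 1 list lay above every control list, and so did every day 10 list, whereas day 1 and day 10 lists overlapped. All merged regions also gained peaks, from 36.4 ± 2.01% (SD, n = 3) in control lists to 47.1 ± 5.51% at day 1 and 46.7 ± 4.81% at day 10, so the members were set against them.

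Relative to all regions, the members were under-represented in every MDA-MB-231 list, and least so at day 1. The log2 ratio of the share of members to the share of all regions was -0.83, -0.94 and -0.79 in control replicates 1, 2 and 3. It was -0.36, -0.44 and -0.34 at day 1, and -0.71, -0.72 and -0.50 at day 10. The day 1 lists lay above all lists of both other groups, and control and day 10 lists did not overlap. Group means were -0.85 ± 0.08 in control, -0.38 ± 0.06 at day 1 and -0.64 ± 0.13 at day 10 (SD, n = 3). All regions include those with a PC3 control peak and those called from MDA-MB-231 peaks alone, which the rule leaves out. Regions open at both times and late-opening regions were also under-represented in control lists, with means of -0.48 and -1.93. Under-representation in control lists is therefore not particular to the members.

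None of the 5 comparisons of this ratio passed 0.05 after adjustment. The exact two-sided permutation test, adjusted by the Benjamini-Hochberg method over the 5, gave the following. Day 1 exceeded control and day 10 together by 0.37 log2 (exact p = 0.0238, adjusted 0.0595), and treated exceeded control lists by 0.34 (exact p = 0.0238, adjusted 0.0595). Both p-values are the smallest that 84 relabellings allow. Day 1 against control gave 0.47, day 10 against control 0.21 and day 1 against day 10 0.26, each with exact p = 0.100 and adjusted 0.100, the smallest that 3 against 3 lists allow. With relabelling only within replicate numbers, a paired form of the test, each of these 3 gave exact p = 0.250. In that form, day 1 against control and day 10 together and treated against control gave exact p = 0.0741 each (adjusted 0.185).

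Without PC3 control replicate 1, which leaves 1960 members, the differences were smaller. Day 1 against control was 0.21 (exact p = 0.100), day 10 against control 0.04 (exact p = 0.90) and day 1 against day 10 0.17 (exact p = 0.200). Treated against control was 0.12 (exact p = 0.238), and day 1 against control and day 10 together 0.19 (exact p = 0.0476, adjusted 0.238). Without PC3 day 1 replicate 1, day 10 against control was 0.13 (exact p = 0.300).

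The comparison with control depended on what the members were set against. Against the regions in no PC3 control list, a denominator chosen after the data were seen, the difference was -0.01 at day 1 (exact p = 1.00) and -0.21 at day 10 (exact p = 0.200). Against regions open at both times, the members' ratio in MDA-MB-231 was lower than in control by 0.17 at day 1 and by 0.41 at day 10 in log2 units (-0.17 and -0.41, exact p = 0.100 each). Against late-opening regions the differences were -0.35 and -0.96 (exact p = 0.100 each). More frequent peaks after cisplatin in MDA-MB-231 were thus also a feature of other regions without a PC3 control peak.

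The difference between day 1 and day 10 kept its direction with each of these denominators, without passing a test. It was 0.21 against regions in no PC3 control list (exact p = 0.300), 0.24 against regions open at both times (exact p = 0.200) and 0.62 against late-opening regions (exact p = 0.100). Set against all regions, the same difference was 0.02 for regions open at both times and -0.35 for late-opening regions. When the day 1 lists were set against control and day 10 together, the excess of the members was 0.10 over regions in no PC3 control list (exact p = 0.429) and 0.04 over regions open at both times (exact p = 0.810).

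**Figure D4:**
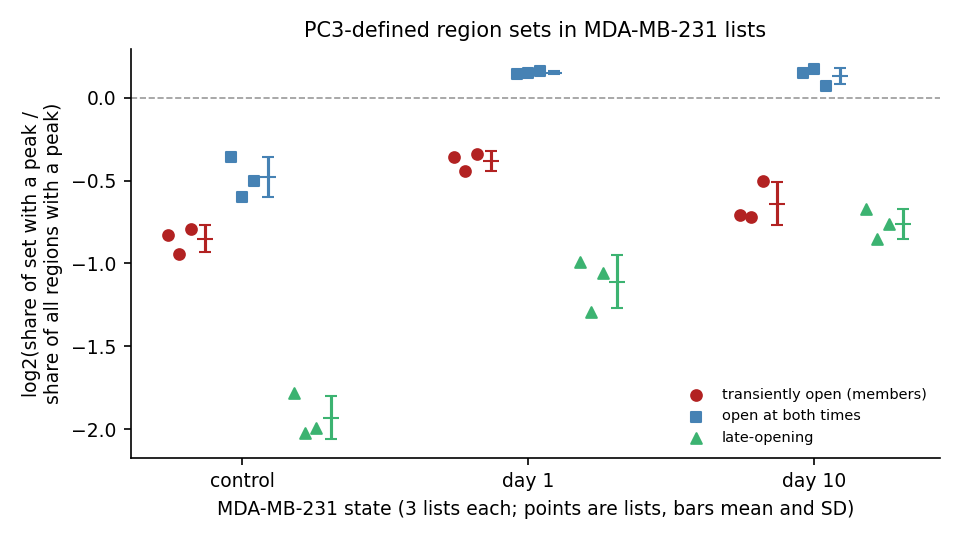
The y axis is the log2 ratio of the share of a PC3-defined set with a peak to the share of all regions with a peak, in MDA-MB-231 control, day 1 and day 10 lists (x axis), with 3 points per group and the mean with SD. Members (red circles) are highest at day 1 (mean -0.38), regions open at both times (blue squares) are level between day 1 and day 10, and late-opening regions (green triangles) are highest at day 10.

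Counted region by region, few members gained a peak in MDA-MB-231. A peak in 0 of 3 control and 3 of 3 day 1 lists was found for 88 members (7.13%, 95% Wilson interval 5.82 to 8.70), against a background of 5.06% of all regions, 6.02% of late-opening regions and 14.3% of regions open at both times. Without MDA-MB-231 day 1 replicate 2 these were 151 members (12.2%) and 8.87% of all regions. The same count at day 10 gave 57 members (4.62%, interval 3.58 to 5.93) against 6.50% of all regions, 15.8% of regions open at both times and 11.7% of late-opening regions. The complete transient rule applied to MDA-MB-231 held for 42 members (3.40%, interval 2.53 to 4.56), against 1.60% of all regions, 2.97% of regions open at both times and 1.15% of late-opening regions. The 42 are 3.40% of the members and 1.13% of the 3720 regions that are transient in MDA-MB-231. A region with an MDA-MB-231 control peak cannot pass any of these counts. All 3 control lists had a peak at 15.6% of members, 21.2% of regions open at both times, 7.31% of late-opening regions and 31.7% of all regions. The sets thus differ in how many regions could pass, and no excess of the members over all regions is read from these shares.

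No MDA-MB-231 list had a peak at 635 members (51.4%), and all 9 had one at 161 (13.0%), while each number from 1 to 8 lists held between 3.00% and 6.80%. Of all merged regions, 35.5% had a peak in 0 of these lists and 28.1% in all 9, and of the regions open at both times in PC3, 34.3% and 20.1%. Late-opening regions had 61.6% and 6.55%, so the members lay between the late-opening regions and the regions open at both times. Where a member did have a day 1 peak in MDA-MB-231 (549 members), its summit was at a median of 14 bp from the PC3 day 1 summit, and within 100 bp for 476 (86.7%). Regions open at both times were similar, with a median of 14 bp and 89.3% within 100 bp. In both sets the peaks of the 2 lines share a merged region, which limits this distance. The members' peaks in MDA-MB-231 had median area percentiles of 38.7, 36.9 and 37.2 in day 1 replicates 1, 2 and 3, below the 51.4, 46.0 and 49.9 of regions open at both times. In control lists the members' medians were 30.5, 26.5 and 26.9, and at day 10 they were 32.4, 32.2 and 31.9. These medians cover only the members with a peak in the list, and they are not set against the PC3 ranks, which the rule bears on.

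**Figure D5:**
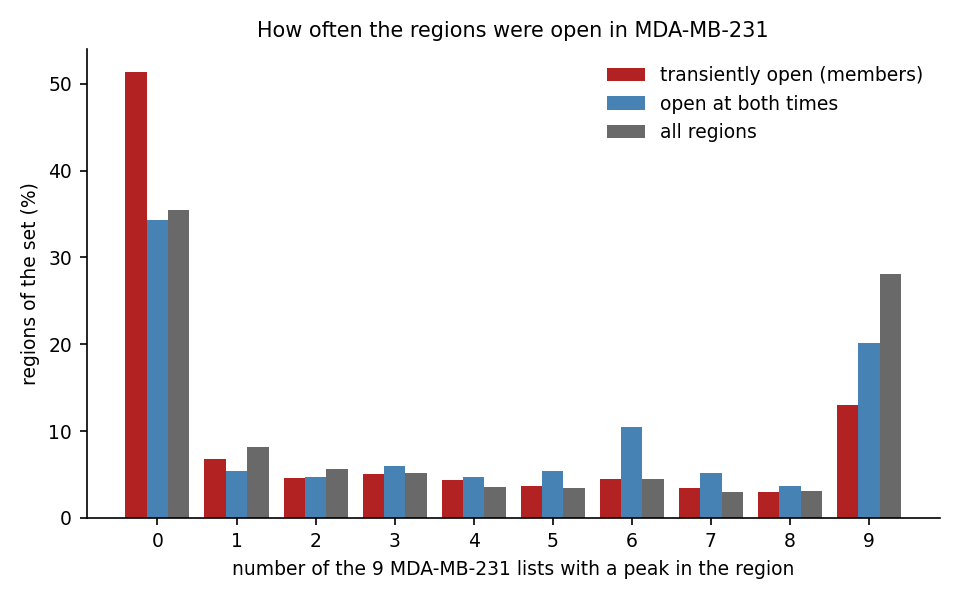
The x axis is the number of the 9 MDA-MB-231 lists with a peak in a region, and bars (y axis, percent of the set, from 0) show members in red, PC3 regions open at both times in blue and all merged regions in grey. Members have their tallest bar at 0 lists (51.4%) and a second rise at 9 lists (13.0%).

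The members with the highest day 1 ranks included sites of each kind. The top one, chr1:43362537-43364454 (1918 bp), overlapped CDC20, whose product activates the anaphase-promoting complex, and ELOVL1, a fatty acid elongase gene, 3.56 kb from the CDC20 start. Its areas were 1394, 920 and 726 at day 1 (percentiles 86.2, 66.8 and 61.0), with 1 day 10 peak of area 250 in replicate 3, and all 9 MDA-MB-231 lists had a peak there. The second, chr5:180628898-180630726 in FLT4, a receptor for lymphatic growth factors, had day 1 areas of 1143, 554 and 855. Its single day 10 peak, in replicate 3, had an area of 819 (percentile 71.5), so this site was strong in 1 of the 3 day 10 lists. In MDA-MB-231 it had a peak only in day 10 replicate 3.

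Other highly ranked members were transient in MDA-MB-231 as well, with a peak in 0 of 3 control, 3 of 3 day 1 and 0 of 3 day 10 lists there. The first of them, chr19:49905828-49908783, at 2956 bp the widest member, lay over IL4I1, an amino acid oxidase, and NUP62, a nuclear pore protein. Its PC3 day 1 areas were 458, 1049 and 888, and day 10 replicate 3 kept a peak of area 494. Another, chr14:103663552-103664744 in KLC1, a kinesin light chain gene, had areas of 691, 737 and 679 at day 1 and 318 in day 10 replicate 1.

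Others of the 42 lay in genes of varied function. In PHTF2 the day 1 areas were 324, 778 and 400, and in ZNF804A, which encodes a zinc finger protein, 273, 623 and 413, with no day 10 peak at either. In ACAP2, which encodes a GTPase-activating protein for ARF6, they were 459, 520 and 352, with a day 10 peak of area 266 in replicate 1. In RALGAPA2, which encodes a subunit of a RAL GTPase-activating complex, they were 465, 627 and 353, with a day 10 peak of area 356 in replicate 2.

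Further members among the 10 highest ranked were mixed in the other line. The site chr1:217964650-217965714, 93.0 kb from SPATA17, had day 1 areas of 664, 597 and 786 and 387 in day 10 replicate 3, and a peak in 0 control, 3 day 1 and 2 day 10 lists of MDA-MB-231. The sites in RFC1, the large subunit of the replication clamp loader (areas 557, 710 and 525), and at chr12:34361576-34363774, which is 333 kb from the nearest protein-coding gene (596, 645 and 759), had a peak in all 9 MDA-MB-231 lists. So did the site in TMPRSS2, an androgen-responsive serine protease gene, whose areas were 871, 534 and 374 with no day 10 peak. The site chr3:184235264-184236541 in VWA5B2 had areas of 556, 561 and 557 and no peak in MDA-MB-231. Its day 10 peak in replicate 3, with an area of 649 (percentile 61.9), shows that a member can keep a strong peak in 1 day 10 list.

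Of the 33 members over promoter windows, 16 were open in all 9 MDA-MB-231 lists and 11 in none. Among all members these shares were 13.0% and 51.4%, and among all merged regions 28.1% and 35.5%, wherever they lay. The shares were not computed for other regions over promoter windows, so the counts are not read as a trait of these members. The CH25H site, chr10:89206408-89208470, had day 1 areas of 447, 430 and 393 with summits 29, 35 and 38 bases before the start (-29, -35 and -38), a day 10 peak of area 339 in replicate 1, and a peak in all 9 MDA-MB-231 lists. EPHA3, an ephrin receptor gene, and CALCRL, a receptor gene for calcitonin-family peptides, had summits at -49, -53 and -53 and at -89, -105 and -53 bases from the start, no day 10 peak, and a peak in all 9 MDA-MB-231 lists. HTR3E and SPINK7 had none in MDA-MB-231. GPBAR1 had summits 13, 22 and 7 bases after the start and a peak in 0 of 3 control, 3 of 3 day 1 and 3 of 3 day 10 lists of MDA-MB-231. EPHA3 and CALCRL were chosen for mention after their values were seen.

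Other gene-end members with high ranks lay near TNS4, a tensin (829, 349 and 365 at day 1), CDR2L (681, 405 and 360), HK1, a hexokinase (653, 425 and 223), and SEPTIN3, a septin (505, 235 and 452). The HK1 site was open in all 9 MDA-MB-231 lists and the SEPTIN3 site in none. GRB14, an adaptor of the insulin receptor, had areas of 444, 421 and 297 and a peak in all 9, as did PHF19, a Polycomb-associated gene (423, 311 and 383). OPRD1, the delta opioid receptor gene (418, 328 and 366), had a peak in none. LOC107986012 (460, 650 and 341) had a peak in 1 control, 1 day 1 and 0 day 10 lists of MDA-MB-231. THSD4 (399, 275 and 430) had a peak in 1 control, 2 day 1 and 3 day 10 lists of MDA-MB-231.

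Most genes with a member had a single one. Of 19974 protein-coding genes, 818 (4.10%) had a member in the body or within 10 kb, 773 of them a single one. THSD4 had the most, with 4 members among 63 regions in and around its 686 kb, and no region there was open at both times or late-opening in PC3. Among its members, chr15:71683421-71684183, was also transient in MDA-MB-231. ADGRV1, a large adhesion receptor gene, ERC2, a presynaptic scaffold gene, and CNTN5, a neural contactin gene, had 3 each, among 67, 81 and 70 regions. ERC2 also held 4 regions open at both times and 9 late-opening ones. The other genes of the 10 with the most members had 2 each. Among them PRR22 and DUS3L, and XAB2 and CAMSAP3, are neighbouring pairs on chromosome 19, and neighbours can share members through the 10 kb flanks.

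Genes of known pathways carried members about as often as other genes. Over 18 gene lists with 429 entries, 15 entries (3.50%) had a member, against 4.10% of all protein-coding genes. The lists of p53 targets, NF-kB and inflammatory secretion, oxidative stress and glutathione, mesenchymal and matrix, epithelial, hypoxia, lysosome and autophagy, housekeeping and haematopoietic genes had none. A single member each was found at the crosslink repair, immediate early and AP-1, interferon, cell cycle, apoptosis and neuronal lists, which held from 24 to 28 genes. A member within 10 kb of a gene need not act on it.

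By number of genes, the prostate and YAP lists had the most of the 18 lists, of which 9 had no member. They were picked out by these counts, which rest on few members and were not tested. Regions of a list were summed gene by gene, so a region shared by neighbouring listed genes counts for each, while a member counts once. The prostate and androgen list had 4 of 22 genes with a member, at 4 of its 232 regions (1.72%, against 0.532% of all regions). These were TMPRSS2, described above, SPDEF, an ETS factor of prostate epithelium (areas 517, 273 and 407), ZBTB16, a zinc finger repressor gene (227, 404 and 300), and STEAP2, a metalloreductase gene whose member lay in the neighbouring gene CFAP69 (202, 287 and 221). Day 10 peaks were found at SPDEF (area 241, replicate 3), STEAP2 (233, replicate 2) and ZBTB16, whose peak in replicate 3 had an area of 434 (percentile 42.3). That percentile was above the 6.14, 32.1 and 19.3 of its day 1 peaks. The SPDEF and ZBTB16 sites had a peak in all 9 MDA-MB-231 lists and the STEAP2 site in none. The YAP and TEAD list had 3 of 22 genes with a member, at 4 of 454 regions (0.881%). They were AJUBA (334, 364 and 358), F3, which encodes tissue factor (345, 353 and 273), and AMOTL1 (342, 298 and 257), of which AJUBA and F3 had no day 10 peak and a peak in all 9 MDA-MB-231 lists. AMOTL1 had a day 10 peak of area 562 in replicate 3 (percentile 55.2), against day 1 percentiles of 26.6, 18.2 and 12.0, and in MDA-MB-231 a peak in 1 day 10 list only. The endothelial list had 2 of 16 genes with a member (12.5%), at 2 of its 218 regions (0.917%), a larger share of regions than the YAP list had.

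The single members of the crosslink repair, apoptosis and AP-1 lists lay outside the listed gene. Those of the interferon and neuronal lists lay inside it. The FANCD2 site, chr3:10021103-10022157, lay 4.28 kb from the start of FANCD2, a central protein of crosslink repair. Its day 1 areas were 973, 451 and 344, with a day 10 peak of area 268 in replicate 2 and none in MDA-MB-231. The site at BIRC5, the survivin gene, lay in the neighbour AFMID (376, 257 and 251), and that at FOSL1, an AP-1 subunit gene, lay nearest C11orf68 (236, 369 and 337). MX2, an interferon-induced GTPase gene, had areas of 331, 207 and 245, and SYT1, a synaptic vesicle gene, 217, 261 and 220, all close to the lowest area of 200.

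The identity of the lines and the presence of other cells were checked on marker genes. HOXB13, a prostate lineage factor gene, held from 2 to 4 peaks in the PC3 lists and 1 in each MDA-MB-231 list. CDKN2A, deleted in MDA-MB-231, held 0 peaks in each MDA-MB-231 list and from 1 to 3 in PC3. VIM had from 1 to 3 peaks in PC3 and from 2 to 4 in MDA-MB-231. Of 12 haematopoietic markers with a known start, from 3 to 4 had a peak within 1 kb of it in PC3 control lists, 6, 3 and 6 at day 1 in replicates 1, 2 and 3, and from 3 to 4 at day 10. Of 10 endothelial ones, 2 had one in each control list and from 2 to 3 in treated lists. The part of other cells in the result was not tested, and no haematopoietic marker had a member, while FLT1 (211, 311 and 224) and FLT4 did among endothelial ones.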

How the data were processed

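ATAC-seq peak lists of PC3 and MDA-MB-231 were analysed, 18 in all, 1 per biological replicate of 6 groups. Per the submitters' processing notes, Genrich 0.6.2, Bowtie2 2.3.5.1, SAMtools 1.6, FastQC 0.12.1, Picard and R 4.4.1 were used with hg38 and GRCh38. The way in which experimental replicates became 1 list is not stated in the labels. The deposited lists have 10 columns and no header. Column 7 is the authors' score, read here from its values as the peak area, column 8 is the deposited −log10 p-value of a peak (lowest 2.52), and column 10 the deposited summit offset. Areas are printed for each list, and ranks are area percentiles within a list. The lists hold no counts, so depth is unknown and no floor in read counts can be given, only the lowest deposited area of 200.

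Peaks that overlapped or touched were merged, and the rule was applied to the merged regions. The members and the gene lists were chosen with earlier results of these data known. Positions came from RefSeq GRCh38.p14 tables with 19974 protein-coding genes, of which 15812 have a start site. Per MDA-MB-231 list, log2 of the share of members with a peak over the share of all regions was compared by two-sided exact permutation tests. Named regions and genes are up to 10 members by mean area percentile in the PC3 day 1 lists, up to 10 such at gene ends, up to 10 also transient in MDA-MB-231, the 10 genes with the most members, and up to 4 genes per gene list, of which the text gives a selection, and a site and a marker gene are not reported here. All 18 motifs were read from 1 list. The rule and tests were tested on simulated lists. Tools were Python 3.11.15, numpy 2.4.6, pandas 2.3.3, SciPy 1.17.1 and matplotlib 3.10.9.

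Replicate numbers are shared between groups. Deviations of presence from the group mean over all regions in MDA-MB-231 correlated at 0.249, 0.214 and 0.135 for same-numbered day 1 and day 10 lists, all above 0.1, so the numbers were taken to pair those lists. For control and day 1 lists the values were 0.206, 0.0936 and 0.0593, and for control and day 10 lists 0.176, 0.0680 and 0.0600. Differently numbered day 1 and day 10 lists reached at most 0.0155. Control replicate 3 and day 1 replicate 2, however, gave 0.0872, above the 0.0593 of replicate 3 in both groups, so pairing with the controls is less clear. The labels do not state such a pairing, which rests on these correlations. The closing section gives the alternatives, which changed list length, overlap, the day 10 limit, windows, denominators and the lists used.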

Additional observations from a re-analysis of the deposited data

How the results depend on the processing

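The number of members was 374 with each list cut to its 50000 peaks of highest area, 645 with the upper 50% by area, 519 with 0 day 10 lists allowed, and from 1424 to 3228 without 1 PC3 list. The shortened lists chose other regions almost throughout, with 0 of 374 and 4 of 645 overlapping a member, so values under these 2 settings describe other regions. The gene-end share was 11.1% with a 5 kb window, 5.59% with either end of a gene, 6.95% with 50000 peaks, 7.29% with the upper 50%, and from 2.94% to 5.05% without 1 list. The intergenic share was 43.2% with 10 kb added to each gene and 49.6% with the upper 50% (from 52.8% to 55.0% without 1 list). The share near a PC3 control peak was 45.8% within 5 kb, 7.49% with 50000 peaks, 9.46% with the upper 50%, and from 14.8% to 23.1% without 1 list. Members gained in MDA-MB-231 at day 1 numbered 18 with 50000 peaks and from 90 to 151 without 1 list.

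The 5 MDA-MB-231 differences were run under 160 alternatives in all, of which 151 kept direction and side of the threshold and 9 turned. Those 9 are the day 1, day 10 and treated lists against control. They were -0.17, -0.41 and -0.29 as a ratio to regions open at both times, -0.35, -0.96 and -0.66 to late-opening regions, and -0.01, -0.21 and -0.11 to regions in no PC3 control list. Since no comparison passed 0.05 after adjustment, keeping that side says nothing of stability. The last 2 denominators, the settings without 1 PC3 list, the MDA-MB-231 lists cut to 50000 peaks, the overlaps with the span of the day 1 peaks, the members of higher rank and the window at either gene end were chosen after seeing the data. Others kept direction but moved by over 1.5 times. Without PC3 control replicate 1, day 1 against control was 0.21, day 10 against control 0.04, treated against control 0.12 and day 1 against control and day 10 0.19. Without PC3 day 1 replicate 1, day 10 against control was 0.13. With MDA-MB-231 lists cut to 50000 peaks, day 10 against control was 0.04, day 1 against day 10 0.63 and day 1 against both 0.65. With all lists cut, day 1 against day 10 was 0.13. With no ratio taken, day 1 against control was 0.84, day 10 against control 0.56, treated against control 0.70 and day 1 against both 0.56. Day 1 against both was 0.04, 0.13 and 0.10 as a ratio to the open at both times, late-opening and no PC3 control regions, and day 1 against day 10 was 0.62 to late-opening regions. Day 1 against day 10 ran from 0.17 to 0.33 with 1 PC3 list left out, and from 0.22 to 0.34 with 1 MDA-MB-231 list left out. In the paired test with a replicate block, day 1 against day 10 was 0.26 (exact permutation p = 0.250, the smallest 3 pairs allow), and day 1 against control (0.47) and day 10 against control (0.21) had the same p. With the block, day 1 against control and day 10 gave 0.37 (exact permutation p = 0.0741) and treated against control 0.34 (exact permutation p = 0.0741), so no call changed. Area ranks near the lowest deposited area limit what absence from a list shows.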
